A study of Arabidopsis thaliana with 24 samples.

Results

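Transcript levels of 3 Arabidopsis thaliana chaperone genes were followed over all 24 ATH1 arrays of a study of the oas-a1.1 mutant and of cadmium. AT2G20560 encodes a DNAJ (HSP40) co-chaperone, AT5G51440 a small heat shock protein, and AT5G48570 an FKBP-type co-chaperone, also called ROF2. The genes were chosen by locus, with earlier results of these data known. Each was read by the 1 probe set that the platform annotation gives to that locus alone: 263374_at for AT2G20560, 248434_at for AT5G51440 and 248657_at for AT5G48570. They are 3 of the 22746 probe sets that were tested.

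The groups, each of 3 biological replicates, were roots and shoots of oas-a1.1 plants treated with cadmium, of untreated oas-a1.1 plants, of cadmium-treated wild-type (WT, accession Col-0) plants and of untreated WT plants. oas-a1.1 is a T-DNA insertion line (SALK_072213) that lacks the major cytosolic O-acetylserine(thiol)lyase, an enzyme that makes cysteine; it is a single line, so the insertion and anything else that line carries cannot be told apart. All plants were grown hydroponically, and roots were harvested after 18 h, shoots after 24 h, with cadmium chloride in the nutrient solution. The labels give no hours for the untreated plants, so cadmium and the hours that passed under it cannot be told apart. The series design gives 50 µM cadmium chloride and the sample protocols 50 mM, so the concentration is uncertain. The mutated gene, OASA1 (AT4G14880), had 0 probe sets of its own in the annotation and was not read.

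Chaperones keep other proteins folded. HSP70 binds exposed stretches of unfolded protein, DNAJ partners such as the AT2G20560 product deliver these and stimulate the ATPase of HSP70, and small heat shock proteins such as the AT5G51440 product, which is directed to mitochondria, hold unfolding proteins until HSP70 takes them over. ROF2 is a peptidyl-prolyl isomerase of the FKBP family that associates with HSP90. In plants such genes are switched on by heat shock factors on heat, and cadmium, which binds thiol groups of proteins, is among the other stresses that can raise them.

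The values were log2 values after robust multi-array averaging (RMA), so a difference of 1 is a 2-fold change; the precision is limited by the 3 arrays per group. Array medians lay between 5.32 and 5.47, and arrays of 1 group correlated at 0.971 to 0.993 over all probe sets, against 0.721 to 0.758 for a root with a shoot array. Of the organ markers, 3 of 9 root and 1 of 12 shoot markers had a probe set of their own in the annotation, and they matched the organ labels. PYK10, a root glucosidase, read 11.86 to 12.85 in roots and 4.19 to 4.67 in shoots, and RCA, the activase of Rubisco in leaves, read 6.03 to 7.77 in roots and 12.3 to 12.88 in shoots. The control probe set for 25S ribosomal RNA set 8 arrays (4.62 to 6) apart from the other 16 (7.72 to 11.96), and 6 of the 8 were replicate 1. Its part in the results was not tested beyond leaving those arrays out and fitting its level as a covariate.

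Cadmium raised AT2G20560 in WT roots, and no other comparison by treatment or genotype put any of the 3 genes past an adjusted p of 0.05. Untreated WT roots had the lowest mean of all 8 groups for each gene. Of 39 tests (3 genes in 13 comparisons) 3 passed at an adjusted p under 0.05 and 10 at an unadjusted p under 0.05. All 3 genes were among the 5% of probe sets that varied most within groups, and their deviations correlated over the 24 arrays. The spread was widest in untreated oas-a1.1 shoots for AT2G20560 and AT5G48570. For AT5G51440 it was widest in untreated oas-a1.1 roots (SD 0.65, against 0.63 in untreated oas-a1.1 shoots).

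**Figure D1:**
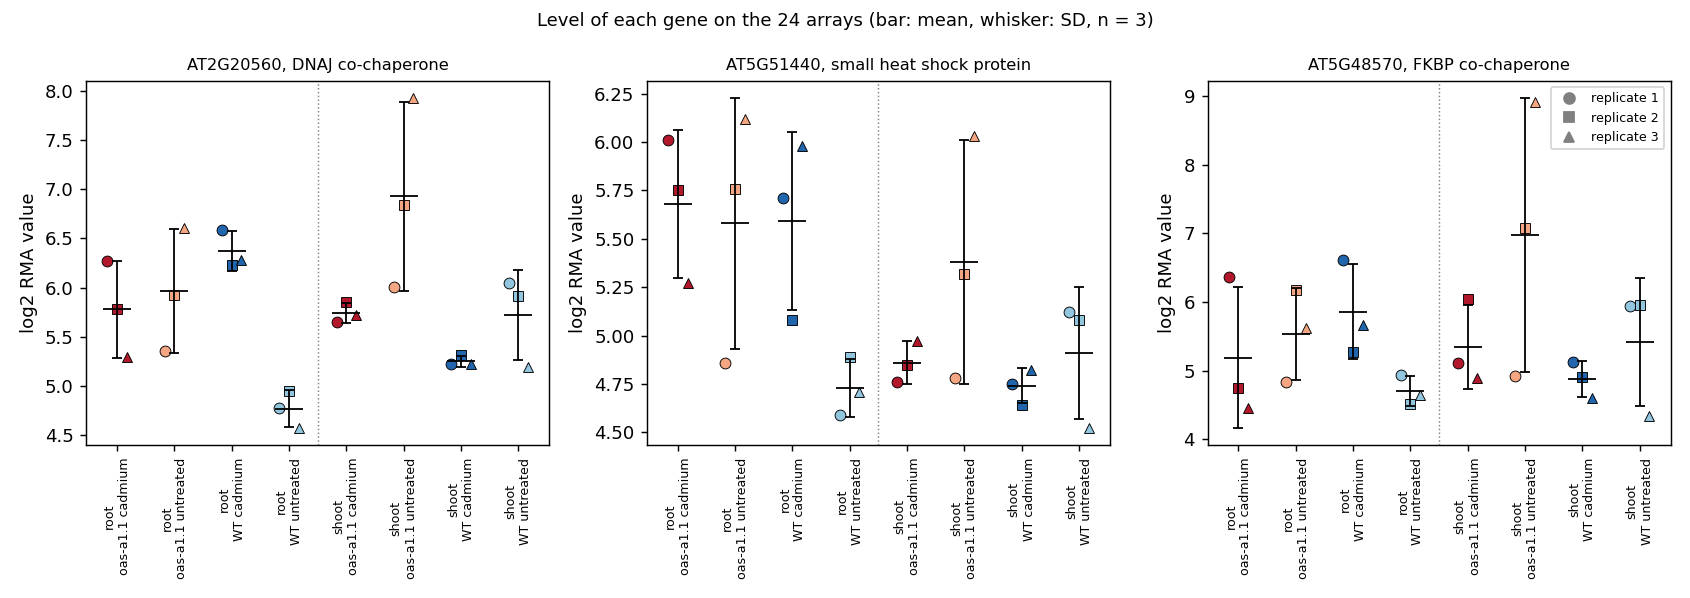
Log2 RMA values of AT2G20560, AT5G51440 and AT5G48570 on every array. The horizontal axis gives the 8 groups, roots left of shoots, and the vertical axis the log2 value; points are replicates, with the shape giving the replicate number, and bars are the mean ± SD (n = 3). Untreated WT roots have the lowest mean in each panel, and the 3 arrays of untreated oas-a1.1 shoots are far apart, from 4.93 to 8.92 for AT5G48570.

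The first comparison was of cadmium-treated with untreated WT roots. The DNAJ gene AT2G20560 read 6.59, 6.23 and 6.28 in cadmium-treated WT roots, against 4.78, 4.95 and 4.57 in untreated WT roots. The untreated mean was low, above that of 37.6% of all probe sets in that group. All cadmium-treated arrays lay above all untreated ones, with a gap wider than the spread inside either group. The difference was 1.60 ± 0.30 (SE; 95% interval 0.94 to 2.26), a 3.03-fold increase, with an adjusted p of 0.0133 in limma over all probe sets. It was 1.49 (adjusted p = 0.0108) without the arrays low in 25S RNA, and 1.61 with an adjusted p of 0.0509 without untreated WT replicate 1.

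The small heat shock protein gene AT5G51440 had values of 5.71, 5.08 and 5.98 in cadmium-treated WT roots, against 4.59, 4.89 and 4.71 in untreated WT roots. Its groups were apart as well, although the lowest cadmium-treated array was close to the highest untreated one. The difference was 0.86 ± 0.32 (SE; 95% interval 0.16 to 1.56; adjusted p = 0.209, limma). The FKBP gene AT5G48570 gave 6.62, 5.28 and 5.67 in cadmium-treated WT roots, against 4.94, 4.51 and 4.65 in untreated WT roots. Here too every cadmium-treated array was above every untreated one, with replicate 1 well above the other 2. The difference was 1.16 ± 0.50 (SE; 95% interval 0.06 to 2.25; adjusted p = 0.307, limma), and it was 0.77 without the arrays low in 25S RNA. In this comparison 1 of the 3 genes was called, where 3.91% of all probe sets were, and 3 of 3 had groups that did not overlap, where 16.0% of all probe sets did. Because the genes were chosen with earlier results of these data known, such shares, here and below, describe them and are not a test.

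In oas-a1.1 roots no cadmium difference of the 3 genes passed the threshold with all arrays. AT2G20560 read 6.27, 5.78 and 5.3 in cadmium-treated oas-a1.1 roots, against 5.36, 5.93 and 6.61 in untreated oas-a1.1 roots. The groups covered almost the same range, and the highest array was an untreated one. The difference was -0.18 ± 0.30 (SE; 95% interval -0.84 to 0.47; adjusted p = 0.972, limma). AT5G51440 read 6.01, 5.75 and 5.27 in cadmium-treated oas-a1.1 roots, against 4.86, 5.76 and 6.12 in untreated oas-a1.1 roots, a difference of 0.10 ± 0.32 (SE; 95% interval -0.60 to 0.80; adjusted p = 0.996, limma). Both groups again spanned the same levels, with replicate 1 of the untreated roots alone at the bottom. AT5G48570 gave 6.37, 4.75 and 4.46 in cadmium-treated oas-a1.1 roots, against 4.83, 6.17 and 5.62 in untreated oas-a1.1 roots, a difference of -0.35 ± 0.50 (SE; 95% interval -1.44 to 0.75; adjusted p = 0.953, limma). A single cadmium-treated array, replicate 1, was high, and 1 untreated array, also replicate 1, was low. Both of those arrays are low in 25S RNA, and without such arrays the difference for AT5G48570 was -1.29 (adjusted p = 0.0281) and that for AT5G51440 was -0.43 (adjusted p = 0.67). None of the 3 genes was called with all arrays, where 4.26% of all probe sets were, and 0 of 3 had groups apart, where 16.5% of all probe sets did.

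The second question was whether the mutation alone shifted these genes. In untreated roots AT2G20560 read 5.36, 5.93 and 6.61 in oas-a1.1, against 4.78, 4.95 and 4.57 in WT. The mutant arrays were all above the WT arrays but were spread more than 3 times as widely, going by SDs of 0.63 in oas-a1.1 and 0.19 in WT. The difference was 1.20 ± 0.30 (SE, 95% interval 0.54 to 1.86, adjusted p = 0.178, limma). It passed without the arrays low in 25S RNA (1.50, adjusted p = 0.0345), 1 of which is replicate 1 of untreated oas-a1.1. With 1 array left out it lay between 0.88 and 1.50, with adjusted p up to 0.564 (limma), and 1 of these 6 fits passed. AT5G51440 averaged 5.58 ± 0.65 in untreated oas-a1.1 roots and 4.73 ± 0.15 in untreated WT roots (SD, n = 3 each), a difference of 0.85 ± 0.32 (SE; adjusted p = 0.526, limma). AT5G48570 averaged 5.54 ± 0.67 in untreated oas-a1.1 roots and 4.70 ± 0.22 in untreated WT roots (SD, n = 3 each), a difference of 0.84 ± 0.50 (SE; adjusted p = 0.972, limma). For both genes mutant replicate 1 fell inside the WT range while mutant replicates 2 and 3 were above it. In untreated roots 0 of 3 genes were called, where 0.356% of all probe sets were, and 1 of 3 had groups apart, where 9.69% of all probe sets did. The untreated WT root arrays serve here and in the cadmium comparison of WT roots, so the differences in both rest on the same 3 arrays.

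**Figure D2:**
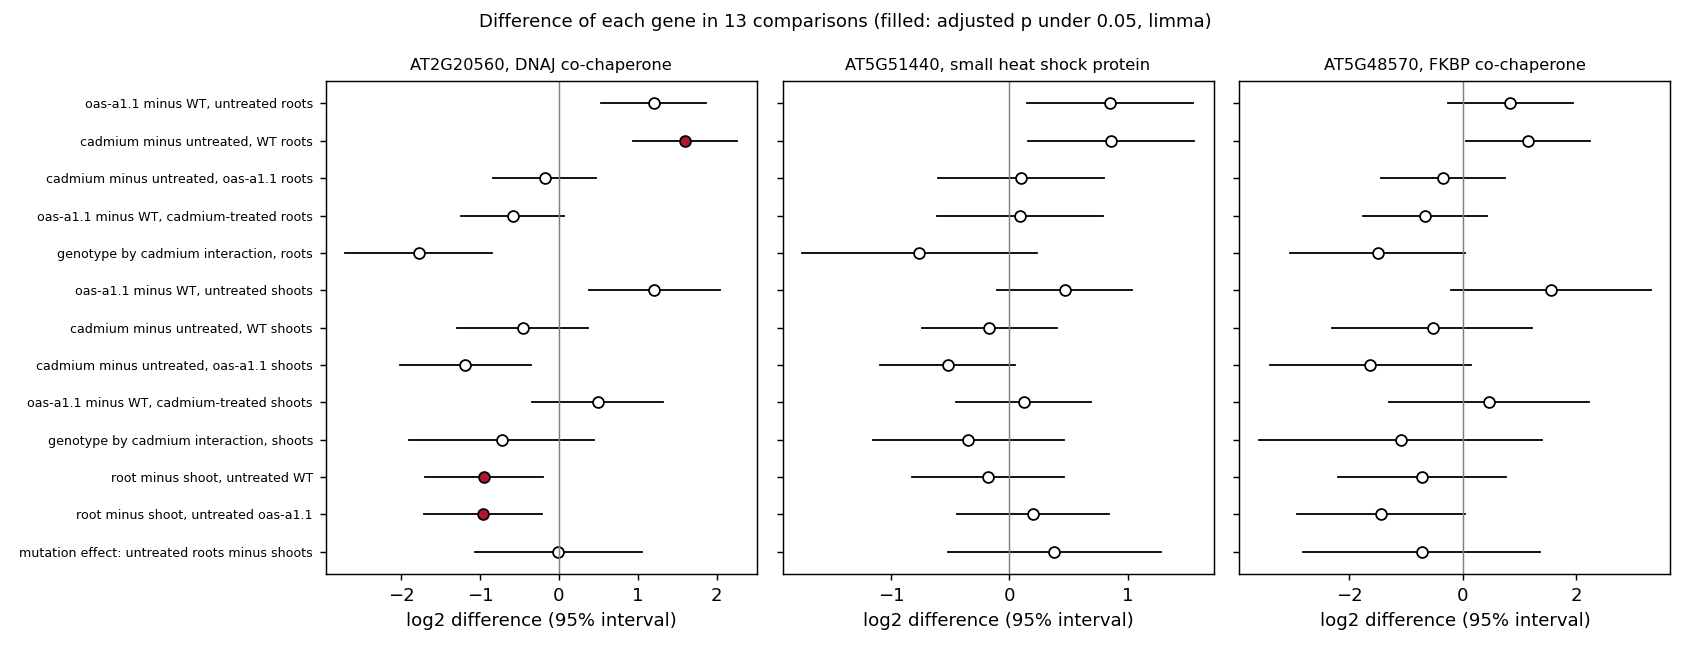
Log2 differences of the 3 genes in the 13 comparisons, in limma. Each row is a comparison and the horizontal axis is the log2 difference, with points for the estimate, lines for the 95% interval and filled points for an adjusted p under 0.05. AT2G20560 is filled for cadmium in WT roots (1.60) and for root minus shoot in untreated WT (-0.95) and untreated oas-a1.1 (-0.96); the other 2 genes have no filled point.

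Among cadmium-treated roots the genotypes overlapped for each gene. AT2G20560 averaged 5.78 ± 0.49 in cadmium-treated oas-a1.1 roots and 6.37 ± 0.20 in cadmium-treated WT roots (SD, n = 3 each), a difference of -0.58 ± 0.30 (SE; adjusted p = 0.562, limma). The difference was 0.09 ± 0.32 (SE; adjusted p = 0.987, limma) for AT5G51440 and -0.66 ± 0.50 (SE; adjusted p = 0.803, limma) for AT5G48570. Same-numbered arrays deviated together in this comparison, and with the replicate number as a block the adjusted p became 0.447, 0.944 and 0.589 for AT2G20560, AT5G51440 and AT5G48570. Here 0 of 3 genes were called, where 1.74% of all probe sets (395) were, a number that was 672 with the block; 0 of 3 had groups apart, where 12.3% of all probe sets did.

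The dependence of the cadmium difference on genotype was tested directly as an interaction. For AT2G20560 the cadmium difference was smaller in oas-a1.1 than in WT roots (interaction -1.78 ± 0.42, SE; 95% interval -2.71 to -0.85), with a raw p of 0.00141 and an adjusted p of 0.0955 in limma, short of the threshold. With 1 array left out it lay between -2.09 and -1.46, with adjusted p up to 0.206 (limma). Of these 12 fits 1 passed, the one without replicate 1 of the untreated oas-a1.1 roots (-2.09, adjusted p = 0.0443). The interaction was -0.76 ± 0.45 (SE; adjusted p = 0.742, limma) for AT5G51440 and -1.50 ± 0.71 (SE; adjusted p = 0.584, limma) for AT5G48570. All 3 estimates were negative and 0 of 3 passed, where 0.747% of all probe sets did. The order of the root group means shows where the differences lie: for AT2G20560 and AT5G48570 it ran from cadmium-treated WT over untreated oas-a1.1 and cadmium-treated oas-a1.1 down to untreated WT, and for AT5G51440 from cadmium-treated oas-a1.1 over cadmium-treated WT and untreated oas-a1.1 to untreated WT. Neighbours in these orders overlapped, except that all cadmium-treated oas-a1.1 roots were above untreated WT roots for AT2G20560.

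In shoots the highest mean of each gene was in the untreated mutant, and those 3 arrays disagreed with one another. AT2G20560 read 6.01, 6.84 and 7.93 in untreated oas-a1.1 shoots, against 6.05, 5.91 and 5.19 in untreated WT shoots. Mutant replicates 2 and 3 were above all WT arrays and replicate 1 was among them. The difference was 1.21 ± 0.38 (SE, 95% interval 0.38 to 2.04, adjusted p = 0.15, limma). With 1 array left out it lay between 0.71 and 1.67, with adjusted p up to 0.325 (limma). Of these 6 fits 1 passed, the one without mutant replicate 1 (1.67, adjusted p = 0.0219). AT5G51440 read 4.78, 5.32 and 6.03 in untreated oas-a1.1 shoots, against 5.12, 5.08 and 4.52 in untreated WT shoots, a difference of 0.47 ± 0.26 (SE; adjusted p = 0.463, limma). AT5G48570 gave 4.93, 7.08 and 8.92 in untreated oas-a1.1 shoots, against 5.95, 5.96 and 4.34 in untreated WT shoots, a difference of 1.56 ± 0.80 (SE; 95% interval -0.20 to 3.32; adjusted p = 0.42, limma). For both genes mutant replicate 1 was below 2 of the WT arrays, and WT replicate 3 was below all other arrays of either group. With 1 array left out the difference for AT5G51440 lay between 0.14 (without mutant replicate 3) and 0.77 (without mutant replicate 1), and that for AT5G48570 between 0.59 and 2.58 on leaving out the same arrays; without WT replicate 3 they were 0.28 and 1.02. In untreated shoots 0 of 3 genes were called, where 1.46% of all probe sets were, and 0 of 3 had groups apart, where 17.2% of all probe sets did.

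The spread of AT5G48570 in untreated oas-a1.1 shoots, an SD of 2.00 over a range of 3.99, was the largest of all tested probe sets in that group. Leaving out the arrays low in 25S RNA takes none from this group but leaves 1 array of untreated WT shoots, replicate 3, and the differences were then 1.74 for AT2G20560 (adjusted p = 0.65), 0.86 for AT5G51440 (adjusted p = 0.713) and 2.64 for AT5G48570 (adjusted p = 0.711).

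After 24 h of cadmium the shoots of both genotypes had lower means than their untreated counterparts for all 3 genes. AT2G20560 read 5.65, 5.85 and 5.72 in cadmium-treated oas-a1.1 shoots, below all 3 untreated oas-a1.1 shoot arrays. The treated arrays were close together while the untreated ones were far apart. The difference was -1.19 ± 0.38 (SE, 95% interval -2.02 to -0.36, adjusted p = 0.158, limma). With 1 array left out it lay between -1.64 and -0.68, with adjusted p up to 0.351 (limma). Of these 6 fits 1 passed, the one without untreated mutant replicate 1 (-1.64, adjusted p = 0.0197). AT5G51440 read 4.76, 4.85 and 4.97 in cadmium-treated oas-a1.1 shoots, a difference of -0.52 ± 0.26 from untreated oas-a1.1 shoots (SE; adjusted p = 0.423, limma; -0.81 to -0.19 with 1 array left out). AT5G48570 gave 5.11, 6.04 and 4.9 there, a difference of -1.63 ± 0.80 from untreated oas-a1.1 shoots (SE; adjusted p = 0.412, limma). Both overlapped with their untreated group through untreated replicate 1. Called were 0 of 3 genes, where 2.18% of all probe sets were, and 1 of 3 had groups apart, where 17.1% of all probe sets did.

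In WT shoots the cadmium differences were -0.46 ± 0.38 for AT2G20560 (SE; adjusted p = 0.647, limma), -0.17 ± 0.26 for AT5G51440 (adjusted p = 0.856) and -0.53 ± 0.80 for AT5G48570 (adjusted p = 0.853). The 2 WT groups overlapped for each gene, with untreated WT replicate 3 at the bottom for each; 0 of 3 were called, where 5.58% of all probe sets were, and 0 of 3 had groups apart, where 19.5% did. The 3 signs turned (0.08, 0.21 and 0.42) when the arrays low in 25S RNA were left out, which keeps only replicate 3 of the untreated WT shoots. The interval for AT2G20560 with all arrays, -1.29 to 0.37, does not reach the increase of 1.60 estimated in WT roots; the treatments lasted different hours in the 2 organs, so these values are given side by side without a test.

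Between cadmium-treated shoots AT2G20560 was 5.74 ± 0.10 in oas-a1.1 and 5.25 ± 0.06 in WT (SD, n = 3 each), and all mutant arrays were above all WT arrays. The difference of 0.49 ± 0.38 (SE) had an adjusted p of 0.816 in limma, whose spread is shared with the untreated shoots. For AT5G51440 the difference was 0.12 ± 0.26 (adjusted p = 0.951) and for AT5G48570 0.47 ± 0.80 (adjusted p = 0.937). In this comparison 0 of 3 were called, where 0.154% of all probe sets were, and 1 of 3 had groups apart, where 13.1% of all probe sets did. The interactions in shoots were -0.72 ± 0.53 for AT2G20560, -0.35 ± 0.37 for AT5G51440 and -1.09 ± 1.13 for AT5G48570 (SE), with adjusted p of 0.684, 0.808 and 0.804, and 0 of 3 passed, where 0.444% of all probe sets did. In shoot means untreated oas-a1.1 came first for every gene; AT2G20560 then had cadmium-treated oas-a1.1, untreated WT and cadmium-treated WT, and the other 2 genes had untreated WT, cadmium-treated oas-a1.1 and cadmium-treated WT. Of these neighbours only untreated and cadmium-treated oas-a1.1 were apart for AT2G20560.

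Roots and shoots were compared in untreated plants. AT2G20560 was lower in roots in both genotypes. It averaged 4.77 ± 0.19 in untreated WT roots and 5.72 ± 0.46 in untreated WT shoots (SD, n = 3 each), a difference of -0.95 ± 0.36 (SE; adjusted p = 0.0377, limma), and the 2 organs did not overlap. In oas-a1.1 it averaged 5.97 ± 0.63 in untreated roots and 6.93 ± 0.96 in untreated shoots (SD, n = 3 each), a difference of -0.96 ± 0.36 (SE; adjusted p = 0.0352, limma), with overlapping arrays. Both calls were lost without the arrays low in 25S RNA (-0.42, adjusted p = 0.622, in WT and -0.66, adjusted p = 0.225, in oas-a1.1), as well as in several other settings. AT5G51440 differed by -0.18 ± 0.31 in WT (adjusted p = 0.693) and 0.20 ± 0.31 in oas-a1.1 (adjusted p = 0.63), and AT5G48570 by -0.72 ± 0.71 in WT (adjusted p = 0.46) and -1.44 ± 0.71 in oas-a1.1 (adjusted p = 0.109). In each genotype 1 of 3 genes was called, where 44.2% of all probe sets were in WT and 45.2% in oas-a1.1, and groups were apart for 1 of 3 in WT and 0 of 3 in oas-a1.1, where 51.6% and 54.7% of all probe sets had groups apart. In whole organs, fewer cells of a type and less RNA per cell cannot be told apart.

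The mutation difference was of like size in both organs for AT2G20560, 1.20 in untreated roots and 1.21 in untreated shoots, and its difference between organs was -0.01 ± 0.51 (SE; adjusted p = 1, limma). The same difference between organs was 0.38 ± 0.43 for AT5G51440 (adjusted p = 0.938) and -0.72 ± 1.00 for AT5G48570 (adjusted p = 0.955). The 95% intervals, -1.07 to 1.05 for AT2G20560, -0.52 to 1.28 for AT5G51440 and -2.81 to 1.37 for AT5G48570, include differences about as large as the mutation differences themselves. None of the 3 was called, where 0.761% of all probe sets were.

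Over the 24 arrays AT2G20560 ranged from 4.57 over a median of 5.81 to 7.93, a 10.3-fold span. AT5G51440 ranged from 4.52 over a median of 5.03 to 6.12, a 3.03-fold span. AT5G48570 ranged from 4.34 over a median of 5.12 to 8.92, a 23.9-fold span. Their lowest levels were thus near the lower quartile of an array (4.26 to 4.50). How far such levels stand above background was not measured, so fold values that start there are uncertain. The spans are those of the log2 RMA scale. The SD within groups, pooled over the 8 groups, was 0.48 for AT2G20560, 0.41 for AT5G51440 and 0.96 for AT5G48570, and 2.02%, 4.74% and 0.0528% of all probe sets had a larger one. The SD of the 8 group means was 0.65, 0.41 and 0.70 for the same genes, so that between groups AT2G20560 varied more than within them, AT5G51440 alike and AT5G48570 less.

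**Figure D3:**
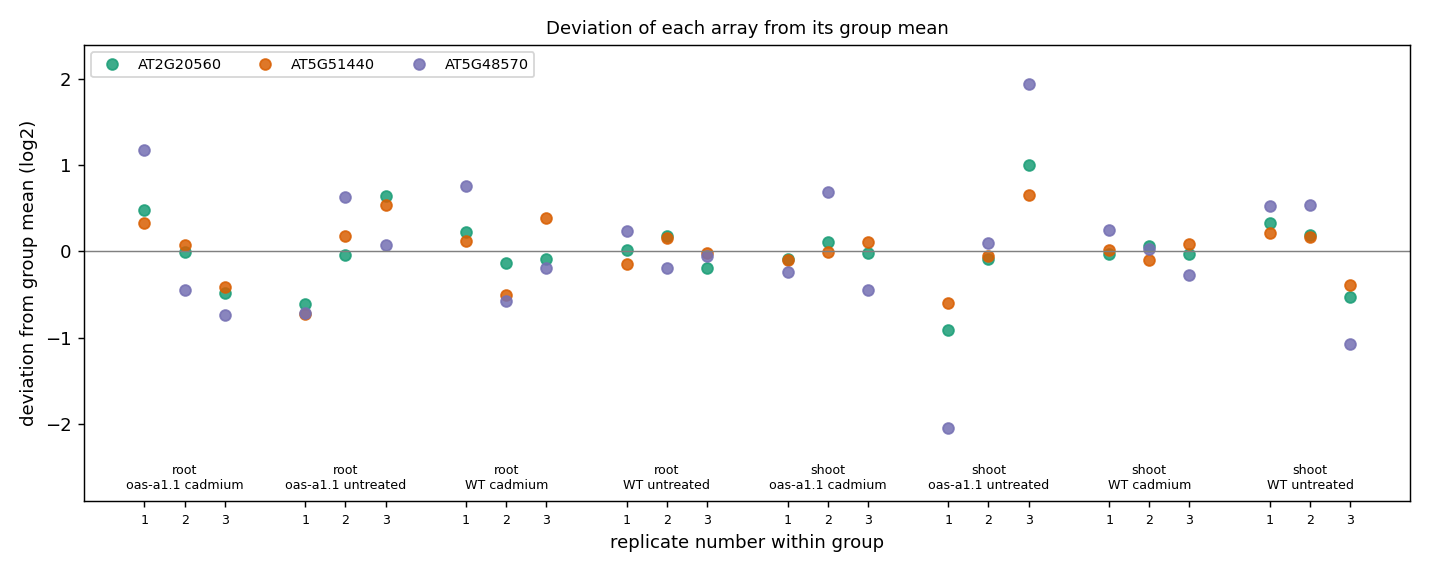
Deviation of every array from its group mean for the 3 genes, in log2 units on the vertical axis, with arrays ordered by group and replicate number on the horizontal axis. On 13 of 24 arrays the 3 genes lie on the same side of 0, and in untreated oas-a1.1 shoots replicate 1 is lowest and replicate 3 highest for each gene; the widest deviations are there for AT2G20560 and AT5G48570, and in untreated oas-a1.1 roots for AT5G51440.

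The deviations of arrays from their group mean were in part shared by the 3 genes. A single array was the highest for all 3 genes in 2 of 8 groups, namely replicate 3 of untreated oas-a1.1 shoots and replicate 1 of cadmium-treated oas-a1.1 roots. A single array was the lowest for all 3 in 5 of 8 groups: replicate 3 of cadmium-treated oas-a1.1 roots, replicate 1 of untreated oas-a1.1 roots, replicate 2 of cadmium-treated WT roots, replicate 1 of untreated oas-a1.1 shoots and replicate 3 of untreated WT shoots. Over the 24 arrays, which share RNA, array and normalization for the 3 genes, these deviations correlated at r = 0.88 for AT2G20560 with AT5G51440, at 0.87 for AT2G20560 with AT5G48570 and at 0.74 for AT5G51440 with AT5G48570. Without the untreated oas-a1.1 shoots (21 arrays left) the values were 0.83, 0.74 and 0.61. Taken by organ, the values were 0.82, 0.68 and 0.62 in roots and 0.97, 0.97 and 0.92 in shoots (12 arrays each). By rank (Spearman) they were 0.71, 0.72 and 0.62 in roots and 0.87, 0.83 and 0.67 in shoots. In untreated WT roots and in both groups of cadmium-treated shoots no array was highest or lowest for all 3 genes.

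No array took the same place in every group. In untreated oas-a1.1 shoots the 25S control read 8.13, 9.44 and 10.36 in replicates 1, 2 and 3, lowest in replicate 1 and highest in replicate 3 as for the 3 genes. In cadmium-treated oas-a1.1 roots it read 4.75, 11.87 and 10.81, where the highest array for the genes, replicate 1, was the lowest for 25S. In untreated WT shoots it read 4.95, 5.68 and 11.07, where the lowest array for the genes, replicate 3, was the highest for 25S. In untreated oas-a1.1 roots it read 6, 11.67 and 11.28, where the lowest array for the genes, replicate 1, was also lowest for 25S. In cadmium-treated WT roots it read 5.6, 11.64 and 9.8, where the lowest array for the genes, replicate 2, was highest for 25S. In these groups the 25S level stood high on some of the arrays with high chaperone values and low on others.

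The other heat shock and chaperone genes were taken from a list of 128 loci in 10 classes. Of these, 36 had a probe set of their own in the annotation used, the 3 genes included. These were 10 of 19 small heat shock proteins, 12 of 24 DNAJ proteins, 4 of 18 HSP70 proteins, 1 of 7 FKBP proteins, 8 of 16 other co-chaperones and 1 of 3 other heat-induced genes. No HSP90, HSP100, chaperonin or heat shock factor of the list had a probe set of its own in that annotation. The factors that act on these genes were therefore not analysed here. Many tested probe sets have no locus in the annotation, so listed genes without a match may still be on the array. The genes read are thus not a full view of these classes. The 33 other genes gave 34 probe sets. The list was fixed with earlier results of these data known, so the shares of it that were called describe and do not test.

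In WT roots cadmium raised 8 of these 34 probe sets and lowered 1, where 3.91% of all probe sets were called, and 29 of 34 differences were positive, with a median of 0.28 against 0.02 over all probe sets. The largest rise was in the cytosolic HSP70 gene AT3G09440 (HSP70-3), which averaged 10.18 ± 0.45 in cadmium-treated and 8.37 ± 0.17 in untreated WT roots (SD, n = 3 each; difference 1.81, adjusted p = 0.0143, limma). Hop3, which hands clients from HSP70 to HSP90, averaged 5.80 ± 0.64 in cadmium-treated and 4.28 ± 0.13 in untreated WT roots (SD, n = 3 each; difference 1.53, adjusted p = 0.0195, limma). Both move in the direction of AT2G20560, and their cadmium-treated and untreated arrays did not overlap.

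The small heat shock protein genes AT2G19310 (1.21, adjusted p = 0.0215) and AT4G21870 (0.94, adjusted p = 0.0195) and the DNAJ gene AT4G28480 (0.92, adjusted p = 0.0102) rose as well. The remaining 3 that rose were Hsp70-2, a cytosolic HSP70 (0.91, adjusted p = 0.0231), Fes1A, a nucleotide exchange factor of HSP70 (1.03, adjusted p = 0.0387), and ATERDJ3B, a DNAJ protein of the endoplasmic reticulum (0.76, adjusted p = 0.0469), which are named beyond the rule for named genes after their values were seen. AT1G56300, another DNAJ gene, fell: it averaged 4.81 ± 0.28 in cadmium-treated and 7.66 ± 0.44 in untreated WT roots (SD, n = 3 each; difference -2.85, adjusted p = 6.7e-05, limma). When arrays were left out one at a time the number of these list probe sets called lay between 3 and 7, and only AT1G56300 and AT4G28480 were called each time.

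**Figure D4:**
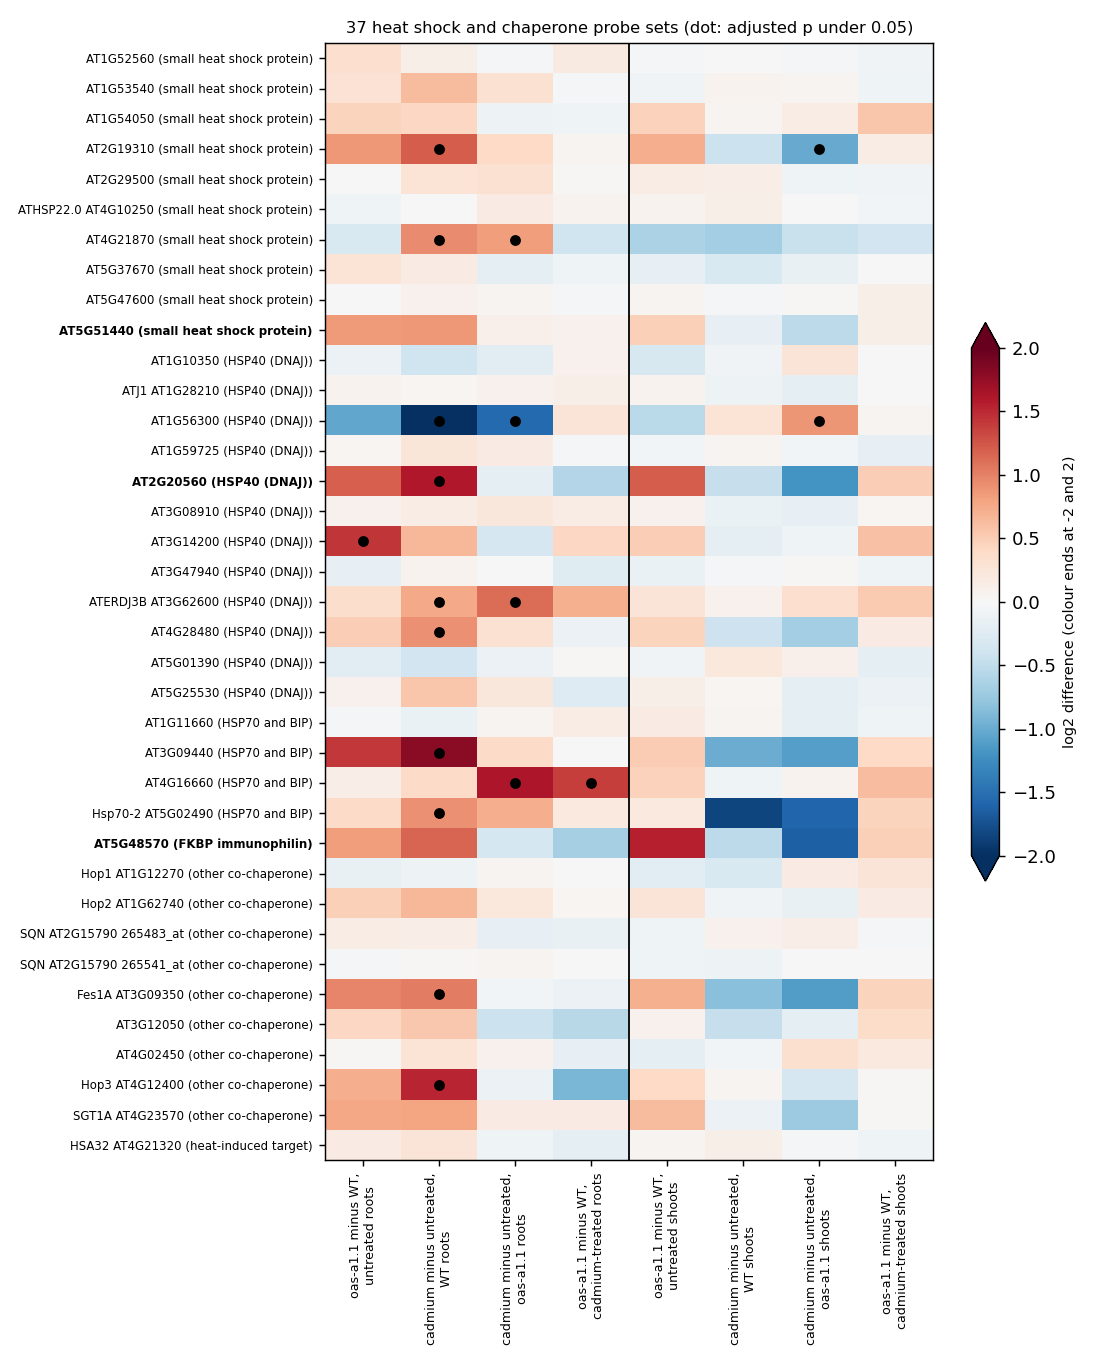
Log2 differences of the 37 heat shock and chaperone probe sets, rows grouped by class with the 3 genes in bold, in the 8 comparisons by genotype or treatment (columns, roots left and shoots right). Red is positive and blue negative, the colour ends at -2 and 2, and a dot marks an adjusted p under 0.05 in limma. The column for cadmium in WT roots holds 10 dots, AT2G20560 included, and the columns for oas-a1.1 minus WT hold 2 in all.

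In oas-a1.1 roots cadmium raised 3 and lowered 1 of the 34 list probe sets (11.8%, against 4.26% of all), with a median difference of 0.08 against -0.01. Those raised were AT4G16660, an HSP70 of the endoplasmic reticulum type (1.61, adjusted p = 0.0038), ATERDJ3B (1.12, adjusted p = 0.00595) and AT4G21870 (0.84, adjusted p = 0.0314), and AT1G56300 was lowered (-1.55, adjusted p = 0.00327). The call of AT4G21870 was lost in 5 of 6 fits with 1 array left out (all but the one without cadmium-treated replicate 2; adjusted p up to 0.111), while the other 3 were called in all 6. In the interaction for roots 0 of 34 passed in limma (10 at an unadjusted p under 0.05), where 0.747% of all probe sets did, so that a difference between genotypes in the cadmium change was not shown for any of them.

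By genotype, 1 of 34 list probe sets (2.94%, against 0.356% of all) was higher in untreated oas-a1.1 roots, the DNAJ gene AT3G14200 (7.60 ± 0.51 in oas-a1.1 and 6.17 ± 0.41 in WT, SD, n = 3 each; difference 1.43, adjusted p = 0.0363, limma), and the median was 0.15 against 0.01 over all probe sets. That call was lost on leaving out any of the 3 WT arrays or mutant replicate 3. In cadmium-treated roots 1 of 34 was higher in oas-a1.1, AT4G16660 (1.38, adjusted p = 0.0219, limma), where 1.74% of all probe sets were called, and the number was 2 with the replicate block. That call was lost in 4 of 6 fits with 1 array left out, without WT replicate 2 or 3 or mutant replicate 1 or 2 (adjusted p up to 0.0856). In untreated and in cadmium-treated shoots the numbers were 0 of 34 each in limma, with 4 in untreated and 3 in cadmium-treated shoots at an unadjusted p under 0.05, where 1.46% and 0.154% of all probe sets passed.

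Cadmium in oas-a1.1 shoots raised AT1G56300 (0.88, adjusted p = 0.012) and lowered AT2G19310 (-1.01, adjusted p = 0.0342), 2 of 34 list probe sets (5.88%, against 2.18% of all). The call of AT2G19310 was lost in 4 of 6 fits with 1 array left out, without untreated replicate 2 or 3 or cadmium-treated replicate 1 or 2 (adjusted p up to 0.125), and in 3 of 10 other settings, and that of AT1G56300 in 2 of 10 other settings. In WT shoots 0 of 34 passed in limma (4 at an unadjusted p under 0.05), where 5.58% of all probe sets did. Between organs 12 of 34 (35.3%) passed in untreated WT plants, 2 higher and 10 lower in roots, and 12 of 34 (35.3%) in untreated oas-a1.1 plants, 5 higher and 7 lower in roots. That share is below the 44.2% and 45.2% over all probe sets, and the 3 biggest differences in each genotype were those of AT2G19310 (-3.54 in WT and -3.40 in oas-a1.1), AT4G21870 (-3.06 in WT and -2.73 in oas-a1.1) and the DNAJ gene AT1G56300 (-2.57 in WT and -3.07 in oas-a1.1). Next by p in both genotypes were Hsp70-2 (-2.46 in WT and -2.27 in oas-a1.1) and SGT1A, an HSP90 co-chaperone (-1.48 and -1.34). AT3G14200 was called lower in roots of untreated WT (-1.16), and the co-chaperone gene AT4G02450 higher in roots of untreated oas-a1.1 (0.40). AT2G19310 and AT4G21870 are small heat shock protein genes that were far lower in roots. Another of that class, AT5G37670, was lower in roots of untreated WT (-0.79, adjusted p = 0.00163, limma). It is named beyond the rule for named genes. AT1G52560, also of that class and named beyond the rule, was higher in roots of untreated oas-a1.1 (0.54, adjusted p = 0.0394, limma). That call was lost in 4 of 6 fits with 1 array left out. The remaining small heat shock protein genes of the list, and AT5G51440 with its -0.18 and 0.20, were not called between organs.

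The wide spread in untreated oas-a1.1 shoots took in part of the list. Of the 34 other list probe sets, 10 were among the 5% of all probe sets with the largest SD in that group, the highest number of the 8 groups, followed by 7 in untreated WT shoots and 6 in untreated oas-a1.1 roots; in untreated WT roots there were 0. Replicate 1 of the untreated oas-a1.1 shoots was the lowest array for 21 of 34, where it was for 30.7% of all probe sets, and replicate 3 was the highest for 16 of 34, where it was for 30.9% of all probe sets. Fes1A read 7.45, 8.42 and 9.54 there, and AT3G09440 read 9.21, 10.47 and 11.14. Both were lowest in replicate 1 and highest in replicate 3, as the 3 genes were. Both are also among the genes most alike to the 3 genes over these same arrays, so this adds no separate evidence. Other list genes differed: ATERDJ3B was highest in replicate 2 (8.19, 9.05 and 8.62), and AT1G52560 hardly varied (4.14, 4.11 and 4.15).

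The genes most alike in pattern were sought among 13512 other probe sets of single genes, by the correlation over 24 arrays after the mean of each organ was subtracted; the arrays share groups, so the values only describe. AT2G20560 was most like Fes1A (r = 0.90, and 0.84 without the 2 most distant arrays), AT4G28480 (0.90 and 0.83), SGT1A, an HSP90 co-chaperone (0.88 and 0.79), AT5G51440 (0.88 and 0.81) and AT5G48570 (0.87 and 0.81). In this setting its 5 nearest genes were all on the chaperone list, which was fixed with earlier results of these data known. AT5G51440 and AT5G48570 among them were chosen together with AT2G20560. The list has 36 genes with a probe set of their own, among 13513 probe sets of single genes. With group means subtracted instead, the nearest was AT1G67920 (0.91), which is not on the list, and Fes1A came 10th and AT4G28480 13th. AT5G51440 was most like AT3G09440 (0.88), AT2G20560 (0.88), SGT1A (0.85), AT5G19875 (0.84) and AT1G67360, which encodes a protein of lipid droplets (0.84), and AT5G48570 came 14th (0.76).

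AT5G48570 was most like AT1G66080, a Hikeshi-like protein of the family that carries HSP70 into the nucleus (r = 0.88), AT2G20560 (0.87), AT4G30470 (0.87), AT5G10740 (0.85) and Cpn60beta2, a chaperonin subunit of plastids (0.83), and AT5G51440 came 21st (0.76). These values leaned on the 2 most distant arrays more than those of the other genes: without them they were 0.70, 0.76, 0.70, 0.72 and 0.65. With group means subtracted instead of organ means, 3, 2 and 3 of the 5 nearest genes remained for AT2G20560, AT5G51440 and AT5G48570, and with nothing subtracted the numbers were the same.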

How the data were processed

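Arrays were Affymetrix ATH1 GeneChips hybridized with biotin-labelled cRNA from total RNA of roots or shoots, 24 in all, 3 per group. What the authors deposited are log2 values, for which the submitters' processing notes name RMA and affy; versions and batches: not given in the sources used here. The values have 2 decimals and were used as given. Tests covered 22746 probe sets, 64 controls being omitted. Genes were named where the platform annotation gives a single locus (13513 of the 22746 probe sets), and 13436 of these were found in the RefSeq gene table. A further 503 probe sets have several loci there, and the others have none. No promoter or protein sequence was used here.

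Tests were limma 3.58.1 in R 4.3.3 (lmFit and eBayes, two-sided), with Benjamini-Hochberg adjustment over all 22746 probe sets and a threshold of 0.05. Comparisons within an organ used a model of its 12 arrays, and those between organs a model of all 24. The code was tested on simulated data. "Apart" means that the 3 values of one group do not overlap those of the other. The genes named are the 3 genes, up to 6 list genes called per comparison by smallest p, and the 5 nearest genes of each. Called list genes named beyond this rule are marked so where their call is given. The members and lists were chosen with earlier results of these data known.

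Replicate numbers come from the sample titles. Same-numbered arrays had residual correlations all above 0.1 (0.11 to 0.64) only in oas-a1.1 minus WT of cadmium-treated roots. The main test there was unpaired as elsewhere, and the fit with the replicate block is given beside it. In the other comparisons of 2 root groups, replicate 2 alone was below 0.1. Alternatives were a level filter (upper 60%), array centring, quantile normalization, other sets of arrays, a trended and robust prior, array weights, the replicate block, the 25S level as a covariate, omission of arrays under 7 in 25S, and leaving out each array.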

Additional observations from a re-analysis of the deposited data

How the results depend on the processing

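Over all comparisons of the 3 genes, 258 of the values with 1 array left out kept direction and side of the threshold, 15 reversed, 6 passed newly and 9 no longer passed; with other settings the numbers were 357, 11, 6 and 7. The rise of AT2G20560 with cadmium in WT roots passed in all 10 other settings (adjusted p = 0.00367 to 0.0194, limma), and lay at 1.49 to 1.69 with 1 array left out, where it missed the threshold only without untreated WT replicate 1. Causes of the changes below were not tested, except that fewer arrays widen the errors; without the arrays low in 25S RNA, untreated WT shoots and cadmium-treated oas-a1.1 shoots keep 1 array each, which is assumed to vary like the other groups.

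For AT2G20560 the root interaction passed among the upper 60% of probe sets (-1.78, adjusted p = 0.0454) and with array weights (-1.65). The mutation difference in untreated roots passed with array weights (1.16) and without the arrays low in 25S RNA (1.50), and the cadmium difference in oas-a1.1 shoots with array weights (-1.25). Root minus shoot no longer passed in oas-a1.1 after quantile normalization (-0.83), with the 12 untreated arrays (-0.96), with the compared arrays alone (-0.96) and without the arrays low in 25S RNA (-0.66), nor in WT with the 12 untreated arrays (-0.95), with the 25S covariate (-0.89) and without the arrays low in 25S RNA (-0.42). Its mutation difference between organs turned to 0.10 with quantile normalization and 0.11 with array weights, and that of AT5G48570 to 0.01 with array weights.

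Without the arrays low in 25S RNA, cadmium in oas-a1.1 roots passed for AT5G48570 (-1.29) and turned for AT5G51440 (-0.43, and -0.00 with array weights). Other signs that turned there were oas-a1.1 minus WT in cadmium-treated roots for AT5G51440 (-0.02), cadmium in WT shoots for AT2G20560 (0.08), AT5G51440 (0.21) and AT5G48570 (0.42), and root minus shoot in WT for AT5G51440 (0.21) and AT5G48570 (0.36).

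With 1 array left out, AT2G20560 ranged from 0.88 to 1.50 for the mutation in untreated roots, -2.09 to -1.46 for the root interaction, -0.49 to 0.14 for cadmium in oas-a1.1 roots, 0.71 to 1.67 for the mutation in untreated shoots, -1.64 to -0.68 for cadmium in oas-a1.1 shoots, -1.21 to -0.78 and -1.42 to -0.46 for root minus shoot in WT and oas-a1.1, and -0.47 to 0.49 for the mutation difference between organs. Its organ call was lost without WT root replicate 1 or 3 or WT shoot replicate 1 or 2, and in oas-a1.1 without root replicate 1 or 2 or shoot replicate 2 or 3. AT5G51440 ranged from -0.26 to 0.37 for cadmium in oas-a1.1 roots, -0.17 to 0.29 for oas-a1.1 minus WT in cadmium-treated roots and -0.09 to 0.56 for root minus shoot in oas-a1.1. AT5G48570 ranged from -0.94 to 0.02 for cadmium in oas-a1.1 roots, -2.65 to -0.65 for cadmium in oas-a1.1 shoots, -2.46 to -0.46 for root minus shoot in oas-a1.1 (both passed without untreated shoot replicate 1 of oas-a1.1, adjusted p = 0.0492 and 0.00282) and -1.74 to 0.25 for the mutation difference between organs.

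The replicate number as a block changed no call of the 3 genes: AT2G20560 in WT roots kept 1.60 with cadmium (adjusted p = 0.019, block). The other comparisons were not treated as paired. Their same-numbered arrays correlated at up to 0.60 (replicate 1, cadmium in WT roots) and down to -0.25 (replicate 3, mutation in untreated shoots). Whether such arrays shared a batch was not tested. The block raised the number of probe sets called for cadmium in WT roots to 1547, against 889. That number lay between 428 and 829 with 1 array left out and between 648 and 1837 in other settings. Counts of called probe sets moved as widely elsewhere: 17 to 138 and 36 to 561 around 81 (mutation, untreated roots), 608 to 710 and 578 to 1952 around 970 (cadmium, oas-a1.1 roots), 116 to 250 and 142 to 727 around 395 (oas-a1.1 minus WT, cadmium-treated roots), 41 to 243 and 39 to 828 around 170 (root interaction), 45 to 838 and 1 to 1850 around 331 (mutation, untreated shoots), 611 to 1695 and 8 to 2926 around 1270 (cadmium, WT shoots), 227 to 574 and 2 to 1259 around 496 (cadmium, oas-a1.1 shoots), 13 to 31 and 1 to 228 around 35 (oas-a1.1 minus WT, cadmium-treated shoots), 23 to 607 and 0 to 1177 around 101 (shoot interaction), and 71 to 394 and 12 to 2176 around 173 (mutation difference between organs). List probe sets called in WT roots with cadmium were 6 to 10 in other settings.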
